A study of Mus musculus with 23 samples.

Results

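The claudin genes of PyMT mammary tumors named Cldn1, Cldn3, Cldn4, Cldn5, Cldn6, Cldn7, Cldn8, Cldn10, Cldn12 and Cldn23 were followed through 5 groups of tumors. They are 10 of 35 claudin genes among the 47643 gene identifiers of the deposited tables, found by mapping the identifiers to mouse symbols. The family was chosen by the measured values of Cldn6, already known to be higher with anti-IL-38 than with IgG. Values of these 2 groups are therefore a description and carry no test.

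Claudins are membrane proteins that polymerize into the strands of tight junctions and close the space between neighboring epithelial or endothelial cells. Some seal this space and others form channels for ions or water, so the mixture in a tissue sets what can pass between its cells. In the mammary gland Cldn3, Cldn4 and Cldn7 are claudins of the luminal epithelium, Cldn5 is the claudin of blood vessel endothelium, and Cldn6 is known from embryonic epithelia and from some tumors.

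RNA of dissociated tumors from female PyMT mice, C57BL/6 animals in which the polyoma middle T oncoprotein drives mammary carcinoma, was measured by 3′ mRNA sequencing in 23 libraries. In the neutralization experiment PyMT WT mice received the anti-IL-38 antibody e04 (group anti-IL-38, n = 6) or a human IgG1 isotype control (group IgG, n = 5) each week for 5 weeks, beginning when the first tumor measured 0.6 cm, and their age is not given in the sources used here. In the other experiment, which began at 13 weeks of age and also lasted 5 weeks, PyMT WT mice received Armenian hamster IgG (WT_IgG, n = 4), and PyMT IL-38 KO mice received the same IgG (KO_IgG, n = 4) or the anti-γδTCR antibody UC7-13D5 (KO_γδTCR, n = 4). All groups carried the PyMT transgene, and WT tumors with γδ TCR blockade were not analysed here. Per the paper, the antibody UC7-13D5 blocks the γδ TCR rather than depleting the cells. The paper also reports fewer γδ T cells in WT and IL-38 KO tumors on blockade, with little change in spleen and blood. In bulk tumors, fewer cells of a type cannot be told apart from less RNA per cell.

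Levels are normalized counts, the reads of a gene divided by 1 size factor per library. A first table of 19 libraries holds IgG, anti-IL-38, WT_IgG and KO_IgG. Another table of 8 libraries, scaled separately, holds the same KO_IgG libraries and KO_γδTCR, so levels were compared within a table and only for the same gene. Total reads ranged from 6273049 to 15879164 per library. KO_IgG replicate 4 and the 4 KO_γδTCR libraries stood apart, as processed pseudogenes took 1.31% to 1.98% of their reads and 0.0943% to 0.191% of the reads in 18 others. In the neutralization experiment IgG replicate 5 held the lowest level of the 19 libraries for Cldn4, Cldn6, Cldn10 and Cldn23, and the lowest summed level of luminal epithelial markers in its group. Il1f10, the gene of IL-38, had 0 reads in every library, WT tumors included, which allows up to 3 counts each, so the knockout could not be checked here. Every marker on the luminal epithelial list (Epcam, Krt8, Krt18, Krt19, Cdh1, Krt7 and Elf5) had reads in each group, as did every marker on the endothelial list.

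Cldn6 was the member with the largest difference on IL-38 neutralization. Cldn6 (ENSMUSG00000023906, chromosome 17) had 356 reads in all 23 libraries, of which 234 lay in the 6 anti-IL-38 tumors and 21 in the 5 IgG tumors. Its normalized counts were 5.66, 8.27, 2.67, 2.76 and 0 in the IgG libraries. In the anti-IL-38 libraries they were 30.8, 81.2, 49.7, 20.03, 40.3 and 20.3. The groups did not overlap, and within anti-IL-38 replicate 2 was highest and replicates 4 and 6 were lowest. The mean was 40.4 ± 23.1 (SD, n = 6) with anti-IL-38 and 3.88 ± 3.17 (SD, n = 5) with IgG, a ratio of 10.4. On the scale of log2(normalized count + 1), on which all fold changes are given, the difference was 3.25 with a standard error of 0.57. Leaving out IgG replicate 5, the library with 0 reads, gave 2.76. Cldn6 ranked 6 from the top among 16002 genes by this value. These genes had a mean of 5 or more, which Cldn6, at 3.88 with IgG, reached only through its anti-IL-38 libraries. Cldn6 was the 1 member of 10 whose treated libraries all lay above the controls. Of all genes 0.4% did so, or 0.687% without IgG replicate 5. Since this contrast guided the choice of the family nothing is read from the rank or from that share.

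**Figure D1:**
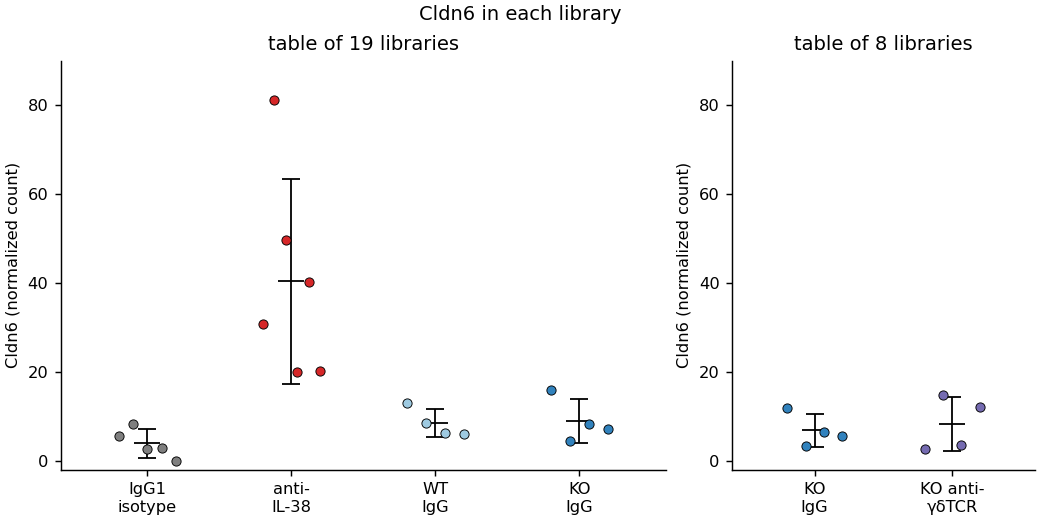
Normalized count of Cldn6 in each library (points) with the mean and SD of each group (bars), in the table of 19 libraries (left) and the separately scaled table of 8 libraries (right). In the table of 19 libraries the 6 anti-IL-38 libraries lie from 20.03 to 81.2, above the highest of the others there, a KO_IgG tumor at 15.9. Heights cannot be compared between the panels. As reads scaled to a common library total (CPM), anti-IL-38 replicate 4, the lowest of its group, is at 1.54. On that scale KO_γδTCR replicate 2 is at 1.52, just below it, and KO_IgG replicate 1 is at 1.35.

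Levels of Cldn6 in IL-38 KO tumors overlapped with those in WT tumors. The WT_IgG libraries held 12.9, 8.48, 6.27 and 6.11 normalized counts. The KO_IgG libraries held 15.9, 4.50, 8.31 and 7.05, so the groups overlapped, with the highest and the lowest value both in KO_IgG. The means were 8.45 ± 3.19 in WT_IgG and 8.94 ± 4.90 in KO_IgG (SD, n = 4 each). The log2 fold change of KO_IgG over WT_IgG was 0.0069 with a standard error of 0.53 and a 95% interval of -1.16 to 1.17, and the limma adjusted p was 0.996. A two-sided exact permutation test gave p = 1, where the smallest p that 4 against 4 libraries allow is 0.0286. The difference between the effects of antibody and knockout was not tested. These libraries held 5 to 17 reads of Cldn6 each, so smaller differences were not detectable at this depth.

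Blockade of the γδ TCR in IL-38 KO tumors left Cldn6 within the spread of the libraries. In the table of 8 libraries KO_IgG held 11.9, 3.41, 6.42 and 5.52 normalized counts, and KO_γδTCR held 2.62, 14.9, 3.62 and 12.1. The lowest and the highest of the 8 values both lay in KO_γδTCR. The means were 6.82 ± 3.64 in KO_IgG and 8.30 ± 6.11 in KO_γδTCR (SD, n = 4 each). The log2 fold change was 0.08 with a standard error of 0.64 and a 95% interval of -1.34 to 1.51. The limma adjusted p was 0.960, and the two-sided exact permutation p was 0.857.

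Relative to the luminal markers of the libraries, the mean of Cldn6 was again highest with anti-IL-38. Per 1000 CPM of the summed luminal list (CPM being reads scaled to a common library total), the mean was 1.09 ± 0.419 (SD, n = 6) with anti-IL-38 and 0.151 ± 0.125 (SD, n = 5) with IgG, and the lowest anti-IL-38 library, at 0.497, lay above the highest IgG library, at 0.303, but not above the highest WT_IgG library, at 0.505. The corresponding means were 0.303 ± 0.156 in WT_IgG, 0.263 ± 0.136 in KO_IgG and 0.259 ± 0.183 in KO_γδTCR (SD, n = 4 each). The summed luminal list itself ran from 1369 through 1862 to 2931 CPM (lowest, median, highest) with IgG and from 1942 through 2685 to 3857 CPM with anti-IL-38, so it was higher in the treated tumors by the median, with overlap.

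Promoters of Cldn6 and of 3 further members that stood out in a comparison are shown so that their letters can be set side by side. They are the 250 bases before and 50 bases after a start site in RefSeq on GRCm38.p6, and 8 of the 10 members had an entry. Capitals mark matches on either strand to CAGGTG (the E-box bound by Snail and Zeb repressors), GGGCGG (GC box), TGGGAA (core of the RBPJ motif), TGANTCA (AP-1), TATAAA and AACCGGTT (grainyhead), and no match overlapped one to another motif. For Cldn7 and Cldn10, which have more than 1 start site, the start with matches is shown.
Cldn6, chr17:23679115-23679414, plus strand: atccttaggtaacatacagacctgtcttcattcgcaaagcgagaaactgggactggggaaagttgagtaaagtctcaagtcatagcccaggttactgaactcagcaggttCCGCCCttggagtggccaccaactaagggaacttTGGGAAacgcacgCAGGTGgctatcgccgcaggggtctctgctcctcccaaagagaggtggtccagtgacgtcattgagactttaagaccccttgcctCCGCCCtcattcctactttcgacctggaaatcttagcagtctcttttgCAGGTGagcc
Cldn4, chr5:134946885-134947184, minus strand: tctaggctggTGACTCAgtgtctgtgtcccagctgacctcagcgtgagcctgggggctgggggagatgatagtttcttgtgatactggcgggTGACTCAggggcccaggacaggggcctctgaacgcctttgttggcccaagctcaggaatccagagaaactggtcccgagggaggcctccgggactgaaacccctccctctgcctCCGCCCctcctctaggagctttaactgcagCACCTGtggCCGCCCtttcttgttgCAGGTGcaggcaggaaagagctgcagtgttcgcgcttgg
Cldn10, chr14:118854700-118854999, plus strand: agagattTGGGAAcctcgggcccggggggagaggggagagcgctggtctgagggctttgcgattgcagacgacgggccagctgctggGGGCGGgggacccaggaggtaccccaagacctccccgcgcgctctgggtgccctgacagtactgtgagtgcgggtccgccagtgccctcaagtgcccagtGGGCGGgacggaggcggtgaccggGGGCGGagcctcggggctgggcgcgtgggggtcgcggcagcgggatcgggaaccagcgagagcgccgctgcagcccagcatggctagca
Cldn7, chr11:69965171-69965470, plus strand: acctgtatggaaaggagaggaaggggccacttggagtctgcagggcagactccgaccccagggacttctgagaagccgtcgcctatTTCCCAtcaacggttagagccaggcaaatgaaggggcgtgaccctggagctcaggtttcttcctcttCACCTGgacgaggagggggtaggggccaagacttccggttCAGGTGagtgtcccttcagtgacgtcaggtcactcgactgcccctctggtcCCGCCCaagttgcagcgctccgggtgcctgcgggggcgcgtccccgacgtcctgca
The Cldn6 promoter held CAGGTG 93 bases before its start and again at position 41 after it, a TGGGAA match 106 bases before the start and 2 GC boxes. Cldn4 held 2 E-boxes, 2 GC boxes and 2 AP-1 matches, and Cldn7 held 2 E-boxes, 1 GC box and 1 TGGGAA. Cldn10 held 3 GC boxes and 1 TGGGAA and no E-box in this window. Cldn3 had 1 E-box, at position 32 after its start, which made 4 of 8 members with an E-box, where 22.6% of all genes with a promoter in the table had one. All 8 members had a GC box, against 38.2% of genes, and TGGGAA stood in the windows of 28.3% of genes. The share of G and C was 52.3% in the window of Cldn6, 61% in Cldn4, 72% in Cldn10 and 62.3% in Cldn7. Its median over all promoters was 52.7%, and the shares of genes with a match were not adjusted for it. The AP-1 sequence was in 8.97% of genes, TATAAA in 15.7%, and AACCGGTT in 0.174% and in no member. A match describes the letters of the window and was not tested as a site of binding.

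Cldn3, Cldn4 and Cldn7, the sealing claudins of luminal cells, had higher means with anti-IL-38 than with IgG, each with overlapping libraries. Cldn3 (ENSMUSG00000070473, chromosome 5), which with Cldn4 is also a receptor for a clostridial enterotoxin, stood at 1620.1, 2657, 5062, 4235 and 2549 with IgG. With anti-IL-38 it ran from 3334 through a median of 5229 to 6111, and the log2 fold change was 0.76 with a standard error of 0.26. All 6 treated libraries lay above the median of the controls and 3 lay above every control. Cldn4 (ENSMUSG00000047501, chromosome 5) stood at 892, 1771, 1296, 459.8 and 199 with IgG, a wide spread whose lowest value was replicate 5. With anti-IL-38 it ran from 1149 through 1381 to 2721, and the log2 fold change was 1.12 with a standard error of 0.45, or 0.66 without IgG replicate 5. Again all 6 treated libraries exceeded the control median. Cldn7 (ENSMUSG00000018569, chromosome 11), a claudin of the lateral membrane that binds Epcam, was at 798, 879.9, 1429.9, 1353 and 1386 with IgG and from 827 through 1355 to 1697 with anti-IL-38. Its fold change, 0.19 with a standard error of 0.21, was no larger than its error.

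Cldn10 and Cldn23 also had higher means with anti-IL-38 than with IgG, with overlap. Cldn10 (ENSMUSG00000022132, chromosome 14), which forms channels for anions or cations depending on its isoform, stood at 90.6, 49.6, 139.9, 43.3 and 5.72 with IgG. It stood at 111, 564, 262, 88.4, 158 and 146 with anti-IL-38, and 4 of these 6 libraries exceeded every control. The log2 fold change was 1.99 with a standard error of 0.67, or 1.30 without IgG replicate 5. Cldn23 (ENSMUSG00000055976, chromosome 8) stood at 34.9, 48.7, 97.1, 18.4 and 2.86 with IgG and ran from 30.4 through 56.8 to 111 with anti-IL-38. The libraries overlapped, and the log2 fold change of 1.21, with a standard error of 0.65, was 0.52 without IgG replicate 5. Across the 19 libraries Cldn10 had the widest range among the members with reads in every library, as its highest level was 98.7 times its lowest.

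The remaining members differed little between anti-IL-38 and IgG. Cldn8 (ENSMUSG00000050520, chromosome 16), a barrier claudin that acts with Cldn4 in the kidney, stood at 145, 253, 114, 152 and 264 with IgG and from 99.2 through 269 to 374 with anti-IL-38, a log2 fold change of 0.33 with a standard error of 0.34. Cldn1 (ENSMUSG00000022512, chromosome 16), which is required for the barrier of the skin, stood at 368, 165, 1059, 550.1 and 212 with IgG and from 156 through 289.6 to 873 with anti-IL-38, a fold change of -0.18 with a standard error of 0.48. Its value turned to 0.19 without IgG replicate 3 and to 0.032 without anti-IL-38 replicate 3, and its controls spread more widely than its treated libraries. Cldn12 (ENSMUSG00000046798, chromosome 5), a claudin without the tail that binds junction scaffolds, ran from 123 to 256 with IgG and from 130.4 to 223 with anti-IL-38, and Cldn5 (ENSMUSG00000041378, chromosome 16) from 17.5 to 47.9 and from 8.25 to 49.4. Their fold changes were 0.06 and 0.0027, with standard errors of 0.21 and 0.43. Leaving out 1 library at a time took them as low as -0.035, without IgG replicate 2, and -0.19, without anti-IL-38 replicate 6. Over the 10 members 9 fold changes lay above 0, those of Cldn12 and Cldn5 with a sign that 1 library could turn, and the median was 0.55, where the median over 16002 genes was 0.0019.

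**Figure D2:**
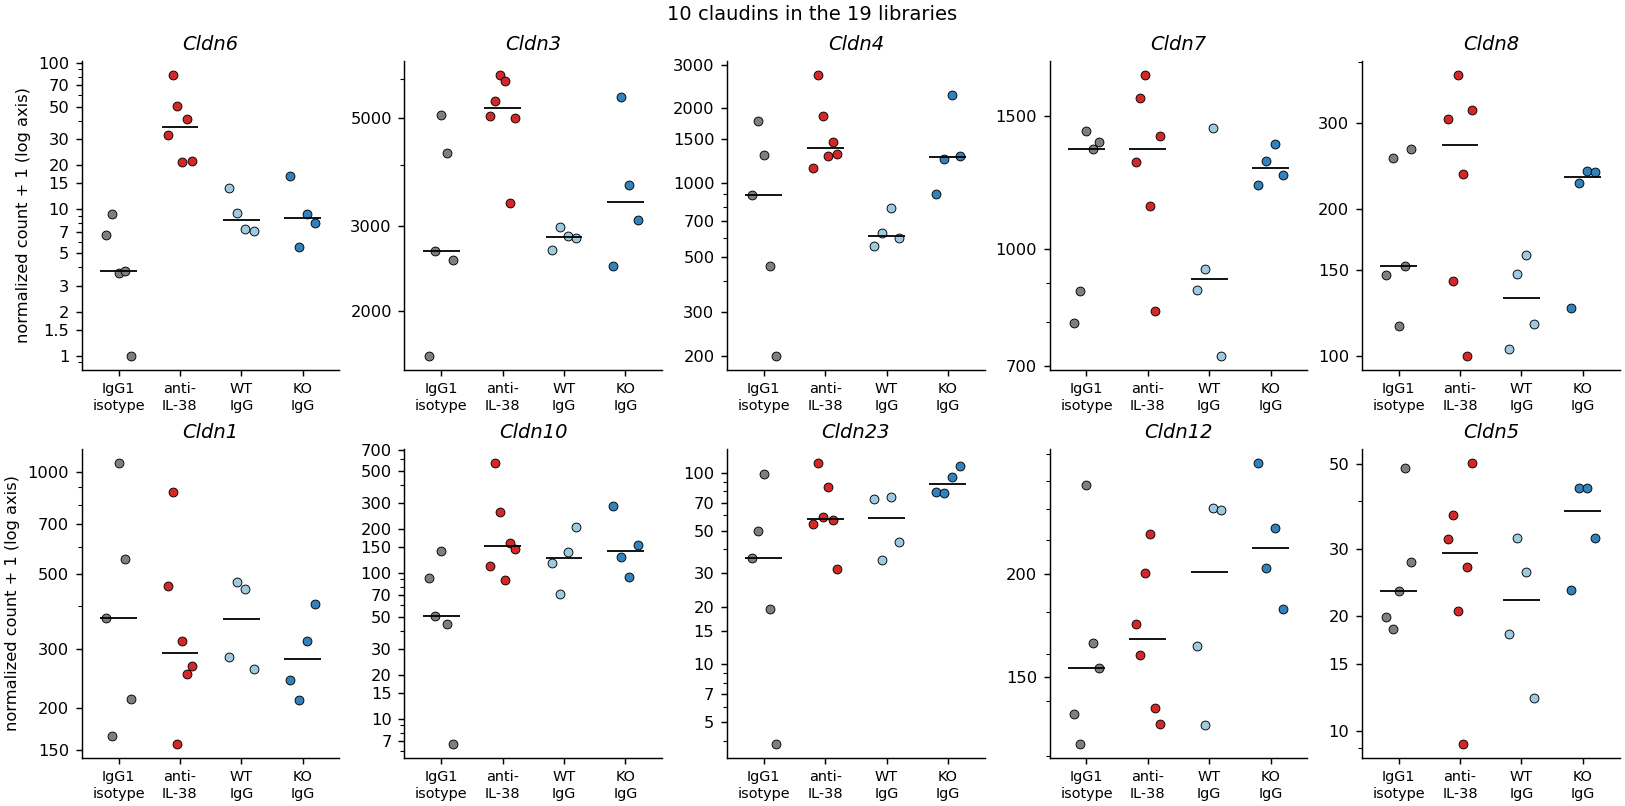
Normalized count + 1 of each of the 10 claudins per library (points, log axis) with the group median (line) in the 4 groups of the table of 19 libraries. Cldn6 separates anti-IL-38 from IgG, while the other 9 claudins overlap between these groups.

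Marker lists differed between these groups as well. By median log2 fold change of anti-IL-38 over IgG, the luminal list of 7 genes stood at 0.69 with all 7 above 0, the basal list at 0.56, the fibroblast list at 0.55 and the endothelial list at 0.18, while the leukocyte list stood at -0.17 with all 4 below 0. The summed basal list ran from 105 to 374 CPM with IgG and from 81.5 to 1789.5 CPM with anti-IL-38, the leukocyte list from 1246 to 1726 and from 1088 to 1503 CPM, and no marker of these lists was at 0 in a group. Per 1000 CPM of the luminal list, the means with anti-IL-38 and IgG were 148 and 130 for Cldn3 and 45.2 and 34.3 for Cldn4. Cldn10 (5.84 and 2.38) and Cldn23 (1.75 and 1.38) were also higher with anti-IL-38 on that scale. Lower there were Cldn7 (38.4 and 49.8), Cldn8 (7.45 and 8.21), Cldn12 (4.85 and 6.74) and Cldn1 (10.3 and 17.7). What part the marker lists had in the claudin values was not tested.

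Between IL-38 KO and WT tumors, Cldn4 was the member with the largest difference. It stood at 555, 623, 793 and 598 normalized counts in WT_IgG. In KO_IgG it stood at 899, 1250.5, 2271 and 1278, and every KO tumor exceeded every WT tumor. The means were 1425 ± 590.3 and 642 ± 104 (SD, n = 4 each), and the log2 fold change was 1.08 with a standard error of 0.24 and a 95% interval of 0.54 to 1.61. The limma adjusted p over 16563 genes was 0.210, and it was 0.116 without KO_IgG replicate 4, at a fold change of 1.10. By DESeq2 on the recovered reads the adjusted p was 0.0044, by edgeR 0.252, and over all alternatives from 0.0044 to 0.523, so the call depends on the test. Relative to the summed luminal list the means were 42.9 ± 20.2 in KO_IgG and 21.8 ± 2.98 in WT_IgG per 1000 CPM, where the lowest KO library, at 25.4, and the highest WT library, at 25.5, just overlapped.

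Cldn23 was the other member whose genotypes did not overlap. Its WT_IgG libraries stood at 71.7, 33.9, 73.4 and 42.8 and its KO_IgG libraries at 78.6, 77.4, 94.4 and 107. The log2 fold change was 0.74 with a standard error of 0.29 and a limma adjusted p of 0.348, or 0.65 and 0.378 without KO_IgG replicate 4. Cldn8 stood at 103, 146, 160.2 and 115 in WT_IgG and at 124, 225, 238 and 237 in KO_IgG, where replicate 1 alone lay within the WT range. Its log2 fold change was 0.62 with a standard error of 0.25 and an adjusted p of 0.352.

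By limma 0 of 10 members passed the threshold of 0.05 on the adjusted p between IL-38 KO and WT, where 0.00604% of all genes did, which is 1 gene. At an unadjusted p below 0.05, 3 members (Cldn4, Cldn8 and Cldn23) were higher in KO, against 6.73% of all genes, and 0 were lower, against 5.4%. By edgeR 0 genes passed, and by DESeq2 1 member, Cldn4, was called higher, against 1.31% of all genes. The 2 members without overlap compare with 3.66% of all genes that were higher in every KO library, and without KO_IgG replicate 4 the count was again 2, against 7.43% of genes. Of the 10 fold changes 9 lay above 0, although those of Cldn6 and Cldn10 were -0.29 and -0.010 without KO_IgG replicate 1, with a median of 0.36, and the median over all genes was 0.0053.

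The other members gave smaller differences between genotypes. Cldn7 stood at 882, 939.6, 1444 and 721 in WT_IgG and at 1212, 1307, 1377 and 1251 in KO_IgG, a narrow group within the WT range, with a log2 fold change of 0.41, a standard error of 0.19 and an adjusted p of 0.414. Cldn3 stood at 2666, 2971, 2858 and 2821 in WT_IgG and at 2480.0, 5510.4, 3634 and 3081 in KO_IgG, with a fold change of 0.32 (adjusted p = 0.558). The WT tumors were alike and the KO tumors lay on both sides of them. Cldn5, the endothelial claudin, stood at 16.9, 31.1, 25.1 and 11.2 in WT_IgG and at 22.5, 42.3, 42.3 and 31.0 in KO_IgG, a fold change of 0.74 with a standard error of 0.39 and an adjusted p of 0.460. Per 1000 CPM of the endothelial list its means were 13.9 ± 6.46 and 19.8 ± 4.91 (SD, n = 4 each). Cldn10 (0.29, adjusted p = 0.770), Cldn12 (0.22, adjusted p = 0.706) and Cldn1 (-0.32, adjusted p = 0.627) had overlapping groups, and Cldn1 was the 1 member with a lower mean in KO tumors, 293 ± 87.5 against 366 ± 110.1 (SD, n = 4 each).

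Marker lists differed between the genotypes as well. The median log2 fold change of KO_IgG over WT_IgG was -0.27 for luminal genes, of which 3 lay above 0 and 4 below. It was -0.70 for leukocyte genes, -1.11 for adipocyte genes, 1.23 for milk protein genes of the lactating alveolus and 2.57 for skeletal muscle genes. The summed leukocyte list ran from 396 to 1052 CPM in KO_IgG and from 1045 to 1484 CPM in WT_IgG. Its lowest value was KO_IgG replicate 4, and KO_IgG replicates 1, 2 and 3 held 837, 981 and 1052 CPM. The summed luminal list ran from 2628 through 2868 to 2994 CPM (lowest, median, highest) in KO_IgG. In WT_IgG it ran from 2019 through 2532 to 3105 CPM. The part of these markers in the claudin values was not tested.

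On γδ TCR blockade in IL-38 KO tumors Cldn7 was the member whose groups separated. It stood at 910.2, 991, 1063 and 979.5 in KO_IgG and at 1245, 1242, 1529 and 1303 in KO_γδTCR, so that every blocked tumor exceeded every control. The means were 1329.7 ± 136 and 986 ± 62.7 (SD, n = 4 each), and the log2 fold change was 0.43 with a standard error of 0.12 and a 95% interval of 0.15 to 0.70. The limma adjusted p over 16481 genes was 0.0811, by DESeq2 it was 0.0249 and by edgeR 0.155, with a range of 0.0249 to 0.203 over all alternatives. Without KO_IgG replicate 4 the fold change was again 0.43, with an adjusted p of 0.0654. Per 1000 CPM of the luminal list the groups overlapped, with means of 42.5 ± 6.63 in KO_γδTCR and 38.2 ± 3.93 in KO_IgG.

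Cldn1 and Cldn10 had higher means on blockade, with overlap. Cldn1 stood at 180.5, 159, 243 and 318 in KO_IgG and at 205, 499, 825 and 404 in KO_γδTCR, where replicate 1 lay among the controls. Its log2 fold change was 0.98 with a standard error of 0.38 and a limma adjusted p of 0.161, which was 1.17 and 0.0689 without KO_IgG replicate 4. Cldn10 stood at 214, 96.9, 71.7 and 120.4 in KO_IgG and at 102, 166, 373 and 202 in KO_γδTCR, a fold change of 0.70 with an adjusted p of 0.362.

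Cldn8, Cldn23 and Cldn4 had lower means on blockade. Cldn8 stood at 93.4, 171, 184 and 186 in KO_IgG and at 118, 59.5, 103 and 84.7 in KO_γδTCR, with a log2 fold change of -0.78, a standard error of 0.29 and an adjusted p of 0.146. The low KO_IgG replicate 1 made the groups overlap. Cldn23 stood at 59.0, 58.7, 72.9 and 83.9 in KO_IgG and at 40.5, 60.7, 32.6 and 39.6 in KO_γδTCR, with a fold change of -0.67, a standard error of 0.27 and an adjusted p of 0.170. Cldn4 stood at 675, 948, 1755 and 1001 in KO_IgG and at 680.2, 719.9, 718 and 818 in KO_γδTCR, a tight group at the lower end of the controls, with a fold change of -0.49, a standard error of 0.25 and an adjusted p of 0.283. Without KO_IgG replicate 4 these fold changes were -0.69, -0.57 and -0.50, with adjusted p of 0.187, 0.247 and 0.268. These 3 members had higher means in KO_IgG than in WT_IgG, and since the same 4 KO_IgG libraries stand on the high side of one comparison and on the control side of the other, the 2 sets of values are not independent.

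**Figure D3:**
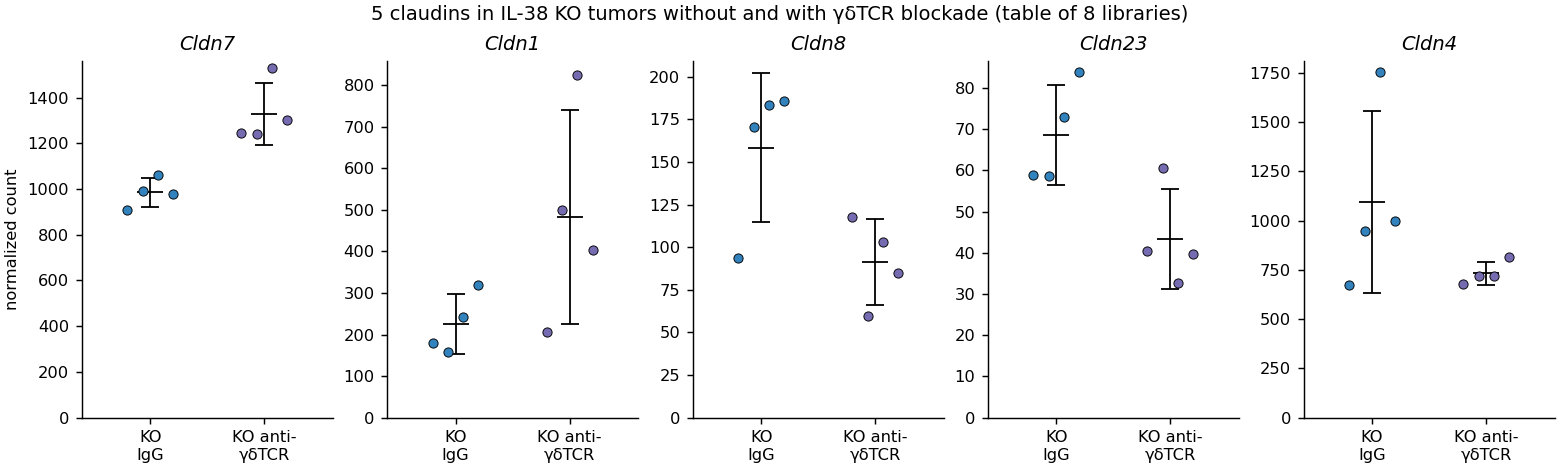
Normalized counts of Cldn7, Cldn1, Cldn8, Cldn23 and Cldn4 per library (points) with mean and SD (bars) in KO_IgG and KO_γδTCR, from the table of 8 libraries. The groups separate for Cldn7, from 910.2 to 1063 against 1242 to 1529, and overlap for the other 4.

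Cldn3, Cldn12 and Cldn5 showed differences below their standard errors on blockade. Their log2 fold changes were 0.17, 0.03 and -0.03, with standard errors of 0.25, 0.19 and 0.47 and adjusted p of 0.743, 0.947 and 0.980. By limma 0 of 10 members and 0 of all genes (0%) passed the threshold. At an unadjusted p below 0.05, 2 members (Cldn7 and Cldn1) were higher and 2 (Cldn8 and Cldn23) lower, against 12.7% and 9% of all genes. By edgeR 0 genes passed, and by DESeq2 1 member, Cldn7, was called higher, against 2.54% of all genes, and no member was called lower, against 3.67%. The 1 member without overlap compares with 4.57% of genes higher in every blocked library, and 0 members were lower in every one, against 4.98% of genes. Without KO_IgG replicate 4 limma called 9.45% of genes higher and 4.85% lower, 2357 genes in all, and again 0 members, and the groups of 1 member did not overlap, against 14.3% of genes. The members' median fold change was 0.06, with 6 of 10 above 0, and the median over all genes was 0.02. The signs of Cldn3, Cldn5, Cldn6 and Cldn12 here turned on leaving out single libraries.

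In this comparison all 4 treated libraries were among those with 1.31% or more of reads on processed pseudogenes, and 1 of the 4 controls was. Pseudogene share and treatment therefore cannot be told apart except through that control library, and not at all in fits without it. The summed leukocyte list ran from 350 to 409 CPM in KO_γδTCR. In KO_IgG replicate 4, the control with the high pseudogene share, it was 396 CPM, within that range. KO_IgG replicates 1, 2 and 3 held 837, 981 and 1052 CPM. The leukocyte list had a median log2 fold change of -0.94, with 1 gene above 0 and 3 below. Ptprc had a higher mean in KO_γδTCR (1967) than in KO_IgG (1537), while that of Cd52 was lower (725 against 2217). The luminal list had a median of 0.31 with all 7 genes above 0. The part of these markers in the claudin values was not tested.

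Among genes whose mean level was 20 normalized counts or more, Slc44a4, a member of the choline transporter-like family, had the pattern most like that of Cldn6 over the 19 libraries. Its Pearson r with Cldn6 on the log2 scale was 0.888 and its Spearman rho 0.812. Next came Wnt4, a secreted Wnt ligand of mammary epithelium (r = 0.877, rho = 0.777), Pcp4, a calmodulin binding peptide (r = 0.875, rho = 0.811), Slc35f3 (r = 0.811, rho = 0.707) and Lmo7, a protein of adherens junctions (r = 0.807, rho = 0.672). The groups differ in level, which alone can raise such values, so r was also taken after removing each group's mean. It was then 0.848 for Slc44a4, 0.743 for Wnt4, 0.757 for Pcp4, 0.802 for Slc35f3 and 0.620 for Lmo7. Leaving out the libraries farthest from the median of Cldn6, IgG replicate 5 and anti-IL-38 replicate 2, gave r of 0.766, 0.750, 0.821, 0.715 and 0.655. Wnt4 had means of 213 ± 91.8 (SD, n = 6) with anti-IL-38 and 57.0 ± 44.0 (SD, n = 5) with IgG. As Wnt4 was picked by its likeness to Cldn6 over libraries that include these groups, this difference is no separate result.

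The genes least like Cldn6 were Kif15 (r = -0.853, rho = -0.823), Pole (r = -0.824, rho = -0.775) and Kif23 (r = -0.820, rho = -0.782). Kif15 and Kif23 are kinesins of the mitotic spindle and of cytokinesis, and Pole is the catalytic subunit of a replicative DNA polymerase. Among the claudins the most alike was Cldn10 (r = 0.747, rho = 0.498), followed by Cldn4 (r = 0.695, rho = 0.570) and Cldn23 (r = 0.562, rho = 0.246). Without the same pair of libraries these r were 0.420, 0.389 and 0.0721, so the likeness of the claudins to Cldn6 rested in large part on those 2 libraries. Between other members the highest values were those of Cldn10 with Cldn23 (r = 0.812), Cldn4 with Cldn23 (r = 0.767) and Cldn4 with Cldn10 (r = 0.679), and the lowest was that of Cldn1 with Cldn8 (r = -0.393). All are descriptions over 19 libraries that share size factors and groups.

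**Figure D4:**
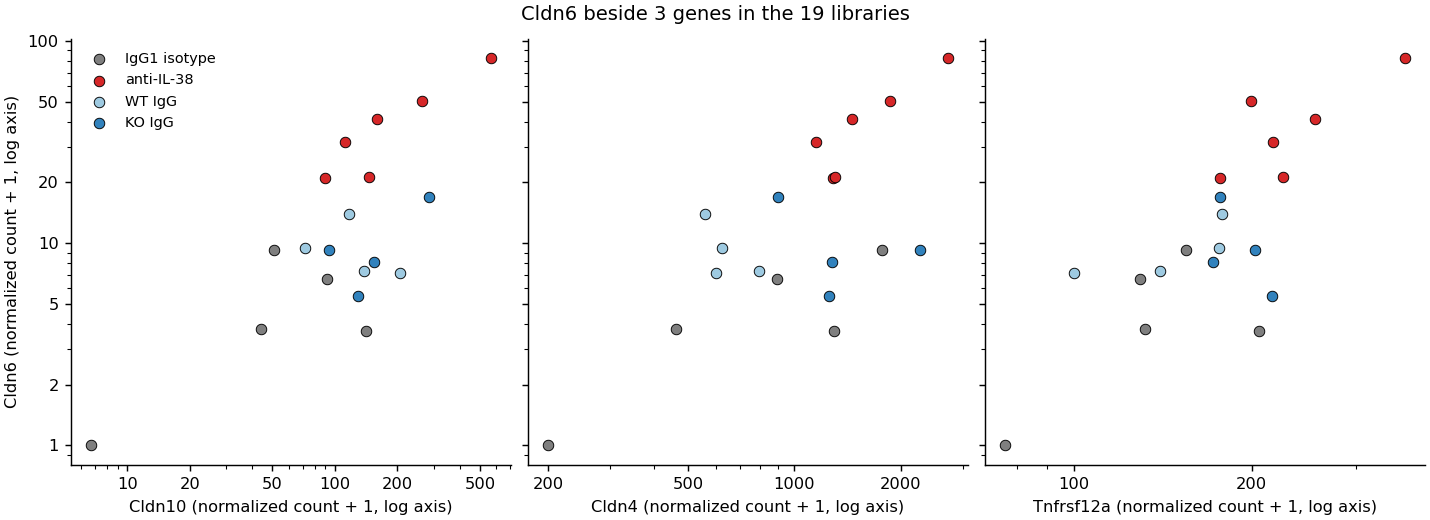
Normalized count + 1 of Cldn6 (y axis) against Cldn10, Cldn4 and Tnfrsf12a (x axes), log axes, 1 point for each of 19 libraries, by group. Anti-IL-38 replicate 2 is highest for Cldn6 and Cldn10 (81.2 and 564) and IgG replicate 5 is lowest for Cldn6 (0), Cldn10 (5.72) and Cldn4 (199).

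The protein-coding neighbors of Cldn6 on chromosome 17 are Cldn9 and Tnfrsf12a. Cldn9, a claudin close to Cldn6 in sequence, had 6 reads in 3 libraries. Tnfrsf12a, the receptor of the cytokine TWEAK, stood at 128, 154, 205, 131 and 75.3 with IgG and ran from 176 through 221 to 362 with anti-IL-38. The ranges overlapped, the log2 fold change was 0.81 with a standard error of 0.25, and over the 19 libraries r with Cldn6 was 0.777, or 0.527 without the pair of libraries named above. Between KO_IgG and WT_IgG it was 0.40 with a limma adjusted p of 0.463.

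Of the claudin genes outside the 10, Cldn2 and Cldn15 reached a mean normalized count of 5. Cldn2, which forms a channel for cations and water, had means of 635 ± 283 with anti-IL-38 (SD, n = 6) and 451 ± 238 with IgG (SD, n = 5), a log2 fold change of 0.51 with a standard error of 0.34. It stood at 236, 340.2, 336 and 582 in WT_IgG and at 429, 523, 740.0 and 647 in KO_IgG, with overlap, a fold change of 0.69 and an adjusted p of 0.340. With the γδ TCR blocked the fold change was -0.12 (adjusted p = 0.824). Cldn15, a sodium channel of the gut, had means of 16.1 ± 4.93 in WT_IgG and 14.1 ± 2.78 in KO_IgG (SD, n = 4 each), a fold change of -0.15 with an adjusted p of 0.898, and on blockade -0.38 with an adjusted p of 0.719. The remaining 23 had lower means, the highest being 3.93, and 12 of them had 0 reads in all 23 libraries.

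The partners of the claudins, from junction scaffolds to the adherens junction, were described as a list of 37 genes, of which 35 were measured above the minimum. On IL-38 neutralization 28 fold changes lay above 0 and 7 below, with a median of 0.32. F11r, the junctional adhesion molecule A, had means of 4093 ± 1439 with anti-IL-38 and 2628 ± 567 with IgG, and a log2 fold change of 0.61 with a standard error of 0.21. For Epcam, which binds Cldn7, the means were 10787.5 ± 2774 and 7217 ± 3807 and the fold change 0.70, with a standard error of 0.33. The scaffold gene Tjp1 stood at 0.11 with a standard error of 0.19, the strand gene Ocln at 0.09 with 0.29, and Cdh1, the E-cadherin gene of the adherens junction, at 0.20 with 0.16.

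Between IL-38 KO and WT 26 partners lay above 0 and 9 below, with a median of 0.21, and limma called none, with 6 higher and 0 lower at an unadjusted p below 0.05, where 6.73% and 5.4% of all genes were. Spint2, an inhibitor of the membrane proteases that cleave Epcam and Cldn7, was called higher by DESeq2, with a log2 fold change of 1.56 and an adjusted p of 0.000265. DESeq2 called 1.31% of all genes higher. By limma the fold change of Spint2 was 1.65 with a standard error of 0.31 and an adjusted p of 0.156. Its groups did not overlap, at means of 1441 ± 285 and 493 ± 229 (SD, n = 4 each), where 3.66% of all genes were higher in every KO library. Tjp1 (0.33), Ocln (0.49), F11r (0.26), Epcam (0.31) and Cdh1 (0.49) had limma adjusted p from 0.351 to 0.622. After γδ TCR blockade 25 partners lay above 0 and 10 below, with a median of 0.10, and limma called none, with 1 higher and 3 lower at an unadjusted p below 0.05, where 12.7% and 9% of all genes were. Without overlap 1 partner, Epcam, was higher, at 9523 to 10875 in KO_γδTCR against 7390 to 9247 in KO_IgG, and 2 partners were lower. Of all genes 4.57% were higher and 4.98% lower without overlap. DESeq2 called 2 lower, against 3.67% of all genes. The 2 were Prkci, the atypical protein kinase C of the polarity complex (-0.58, adjusted p = 0.00857), and Ctnnd1, the p120 catenin that holds cadherins at the membrane (-0.68, adjusted p = 0.0186). Without KO_IgG replicate 4 limma called the same 2 lower, with adjusted p of 0.0314 for Prkci and 0.0454 for Ctnnd1. In that setting it called Ybx3, which binds the scaffold Tjp1, higher with an adjusted p of 0.0410. The share of all genes called there was 9.45% higher and 4.85% lower. Without that library every treated library and no control had the high pseudogene share, so these calls cannot tell treatment and share apart.

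Transcription factors of epithelial programs, among them the repressors of claudin genes, gave a list of 25. On IL-38 neutralization 16 of 21 measured fold changes lay above 0, with a median of 0.19. The E-box repressors went both ways, with Snai1 at -0.21, Snai2 at 0.20, Zeb1 at 0.43 and Zeb2 at -0.41 with a standard error of 0.15, and Grhl2, an activator of claudin genes in epithelia, stood at 0.09. Between IL-38 KO and WT 11 of 22 lay above 0, and limma called none, with 1 higher and 1 lower at an unadjusted p below 0.05 (6.73% and 5.4% of all genes). DESeq2 called 1, the epithelial factor Klf4, lower (-0.69, adjusted p = 0.0400), where it called 81 of 16563 genes lower. Grhl2 stood at 532 ± 26.4 in KO_IgG and 385 ± 55.0 in WT_IgG (SD, n = 4 each), without overlap, a log2 fold change of 0.48 with a limma adjusted p of 0.275. Of all genes 3.66% were higher in every KO library. After γδ TCR blockade 14 of 22 lay above 0, and Zeb2, which leukocytes and stroma express as well, stood at 1609 ± 342 against 1039 ± 203 (SD, n = 4 each), without overlap. Its log2 fold change was 0.63 with a limma adjusted p of 0.0853, by DESeq2 0.0425, and without KO_IgG replicate 4 by limma 0.0269. Of all genes 4.57% were higher in every blocked library, DESeq2 called 2.54% higher, and limma without KO_IgG replicate 4 called 9.45% higher. In that last setting treatment cannot be told apart from the pseudogene share of the libraries. Limma called no factor in the full comparison, with 1 higher and 0 lower at an unadjusted p below 0.05 (12.7% and 9% of all genes).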

How the data were processed

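Per the labels and the methods of the study, bulk RNA of PyMT tumors was sequenced with QuantSeq 3′ FWD libraries and the BlueBee QuantSeq pipeline. The submitters' processing notes name STAR, HTSeq, DESeq2 and GRCm39, without versions. How reads that match several claudins were counted was not stated. The authors deposited signal values, normalized counts obtained by dividing reads by 1 size factor per library, separately for tables of 19 and 8 libraries. The 4 KO_IgG libraries stand in both. All value columns were used. Dividing by the value of 1 read gave whole reads for 100% of values within 0.0001%. For WT_IgG replicate 1 that value, 0.996, is close to 1, but its levels are not rounded, as Cldn6 stands at 12.9469 for 13 reads. Groups were taken from the sample labels, and nothing says whether each library is a separate animal, so p-values measure the spread between samples. No pair of libraries was a duplicate (253 pairs, lowest chi-square per degree of freedom 15.9).

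Genes averaging 5 or more normalized counts over the libraries compared were fitted with limma 3.58.1 (R 4.3.3) on the log2 scale after adding 1. The moderated test used a trended prior and was two-sided, and p-values were adjusted over all genes by Benjamini-Hochberg, at a threshold of 0.05. This scale understates the change of low genes. Cldn6 was also tested by exact permutation. Alternatives were edgeR 4.0.16 and DESeq2 1.42.0 on the recovered reads, pseudocounts of 0.5 and 5, other filters, TMM rescaling, the replicate number as a block and leaving out each library. Overlap without IgG replicate 5 or KO_IgG replicate 4 was added after seeing the data. The fits were tested on simulated counts. Members, lists and tests were chosen with earlier results of these data known. The genes named are all 10 members, Cldn2 and Cldn15, 10 partners and factors and those past a threshold, the neighbors of Cldn6, and the 5 genes most and 3 least like it by Pearson r. A floor of 3 counts equals 0.189 to 0.478 CPM and covers counting error only, as reads carry no molecular identifiers. The intervals given with fold changes come from the limma fits and measure the spread between samples. Symbols came from GENCODE M21 on GRCm38 (47224 of 47643 identifiers), and promoters from RefSeq on GRCm38.p6. These builds differ from the authors' build, so no gene coordinates are given. In the headers of the tables the running numbers of the libraries follow the groups, so group and order on the sample sheet cannot be told apart. KO_IgG replicate 4 and the KO_γδTCR libraries, those with the high pseudogene share, come last in that order without a gap. The header of KO_γδTCR replicate 3 also carries the mark rep, which is not explained.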

Additional observations from a re-analysis of the deposited data

Results flagged for a closer look

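The groups of 4 to 6 libraries of the 10 members and of Cldn2 and Cldn15 were searched for a library far from its group by Dixon's criterion, which chance meets in about 1 of 20 groups. Of 60 groups 2 met it. Cldn8 in KO_IgG replicate 1 was 124 normalized counts, where the other 3 KO_IgG libraries lay from 225 to 238. Cldn10 in anti-IL-38 replicate 2 was 564, where the next library lay at 262 and the lowest at 88.4, and the same library was the highest for Cldn6.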

How the results depend on the processing

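Over 588 alternative settings for the fold changes of 12 claudins, 551 kept their direction and any side of the threshold, 35 turned direction (14 on IL-38 neutralization, 5 in IL-38 KO against WT and 16 on γδ TCR blockade) and 2 passed the threshold, Cldn4 in IL-38 KO against WT (adjusted p = 0.0044) and Cldn7 on γδ TCR blockade (adjusted p = 0.0249), both by DESeq2. The fold change of Cldn6 on IL-38 neutralization ran from 2.29 to 3.57, while those of Cldn1 (-0.48 to 0.19), Cldn5 (-0.19 to 0.30) and Cldn12 (-0.035 to 0.23) crossed 0. Leaving out 1 library at a time turned small fold changes, which then ran from -0.29 to 0.25 for Cldn6 and from -0.010 to 0.54 for Cldn10 in IL-38 KO against WT. On γδ TCR blockade they ran from -0.27 to 0.44 for Cldn6, -0.0078 to 0.38 for Cldn3, -0.22 to 0.42 for Cldn5, -0.053 to 0.13 for Cldn12 and -0.27 to 0.057 for Cldn2. There Cldn5 was 0.065 by edgeR and 0.098 by DESeq2, and Cldn12 was -0.011 after TMM rescaling. The number of genes called in IL-38 KO against WT was 1 by limma, 0 by edgeR, 298 by DESeq2 and 0 to 7 without 1 library. On γδ TCR blockade it was 0 by limma and edgeR, 1024 by DESeq2 and 0 to 2357 without 1 library, the highest without KO_IgG replicate 4. The cause was not tested. With the replicate block the counts were 0 and 0. Numbers did not pair the libraries, as correlations of same-numbered libraries ran from 0.0229 to 0.0746 in IL-38 KO against WT and from -0.169 to 0.0249 on blockade, and 2 of 4 and 0 of 4 correlated best with their own number. Depth limits Cldn6, which had 0 to 17 reads per library outside anti-IL-38.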

Other observations

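Regulators of the membrane proteases matriptase and prostasin, which act on Epcam and claudin 7, were looked at after their values were seen. Spint2, an inhibitor of these proteases, had means of 973 ± 437 with anti-IL-38 (SD, n = 6) and 419 ± 239 with IgG (SD, n = 5), a log2 fold change of 1.28 with a standard error of 0.36 and no test. On γδ TCR blockade in IL-38 KO tumors it stood at 721 ± 158 against 1104 ± 214 (SD, n = 4 each), a fold change of -0.62 with a standard error of 0.20 and a limma adjusted p of 0.102, in a comparison that shares its controls with that of IL-38 KO and WT. Its relative Spint1 (0.14, adjusted p = 0.777) and the proteases St14 (0.35, adjusted p = 0.442) and Prss8 (0.24, adjusted p = 0.601) stood nearer to 0 in IL-38 KO against WT.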
